A study of Mus musculus with 10 samples.

Results

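The matrix metalloproteinases (MMPs), the ADAM and ADAMTS proteases and their tissue inhibitors (TIMPs) were described in bulk RNA sequencing of mouse kidney tumours. Members were all rows of the deposited count table whose symbol is Mmp, Adam or Adamts followed by a number, or Timp1 to Timp4. This gave 48 of 18603 genes, namely 17 MMP, 13 ADAM, 15 ADAMTS and 3 TIMP genes, and 44 of them passed the filter on low counts. The rule used symbols and no measured value, but members were chosen with earlier results of these data known.

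SLR14 tumours (n = 5) were RENCA tumours injected with lipid nanoparticles carrying SLR14, a stem-loop RNA with a 5′ triphosphate that activates the cytosolic RNA sensor RIG-I, in 50 µL of PBS. PBS tumours (n = 5) were RENCA tumours injected with phosphate-buffered saline. RENCA is a mouse renal carcinoma line, grown here under the skin of female Balb/c mice, whose age is not given in the sources used here. Mice were randomized at a tumour volume of 100 to 150 mm3, received 3 injections 48 hours apart into the tumour, and gave their tumours 24 hours after the last. The PBS group had neither nanoparticle nor RNA, so effects of the RNA and of its carrier cannot be told apart. The RNA came from whole tumours of separate mice, and fewer cells of a type and less RNA per cell cannot be told apart.

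Levels are given as CPM, the reads of a gene relative to all counted reads of its tumour, scaled by TMM factors, which adjust each library for the make-up of its RNA. Total counts ranged from 17931895 to 39842608 per tumour. The renal epithelial markers fixed for the line were present: Krt8, an epithelial keratin, averaged 1606 ± 165 CPM in SLR14 tumours and 1415 ± 190 CPM in PBS tumours (SD, n = 5 each), while the renal factor Lhx1 stayed under 0.6 CPM everywhere and Havcr1 was not analysed here. The 8 measured renal epithelial markers summed to between 2573 and 3111 CPM in SLR14 tumours and between 2442 and 3065 CPM in PBS tumours, and 1 of the 8, Epcam, was called lower. Cdh16, the kidney-specific cadherin, averaged 244 ± 40.9 CPM in SLR14 tumours and 351 ± 36.0 CPM in PBS tumours (SD, n = 5 each), without overlap and without a call (edgeR adjusted p = 0.0788). Skeletal muscle markers, which are foreign to the line, summed to between 1.85 and 201 CPM in SLR14 tumours and between 34.8 and 188 CPM in PBS tumours. Of 6 listed skin markers 2 were measured, the keratins Krt10 and Krt14, and they stood out in 2 tumours, with 33.9 and 62.3 CPM in SLR14 tumour 5 and 30.8 and 17.6 CPM in PBS tumour 4, while neither passed 0.3 CPM in another SLR14 tumour or 0.9 CPM in another PBS tumour.

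MMPs are zinc-dependent proteases that are made as inactive precursors and, once their propeptide is removed, cut collagens, elastin, proteoglycans and growth factor stores. ADAMs are membrane-anchored relatives, some of which shed the outer parts of cytokines, receptors and adhesion molecules, while others have lost the catalytic site and act as adhesion or receptor proteins. ADAMTS enzymes are secreted and work on versican, aggrecan, procollagen and other matrix proteins. TIMPs bind the active sites of MMPs and of some ADAM and ADAMTS enzymes. In tumours these genes are expressed by cancer cells, fibroblasts, vessels and infiltrating leukocytes, and several MMPs are products of myeloid cells.

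Of the 10 Mmp genes that lie close together on mouse chromosome 9, 6 are in the count table, in the order Mmp13, Mmp12, Mmp3, Mmp10, Mmp8 and Mmp27. They are shown first because Mmp8, the called member of this cluster, lies between Mmp10 and Mmp27, which had lower mean levels in SLR14 tumours than in PBS tumours. Below are the 150 bases before the annotated start of each gene, read 5′ to 3′ along the gene's own strand, from RefSeq (build GRCm38.p6; the count table was made on mm39, so these coordinates belong to the sequences and not to the counts). Capitals mark the AP-1 site (TGACTCA or TGAGTCA, either strand) that is known from several MMP promoters, and, in Mmp13 alone, also a core of the interferon response element (GAAANNGAAA, either strand, here on the opposite one).
Mmp13, chr9:7272364-7272513, plus strand: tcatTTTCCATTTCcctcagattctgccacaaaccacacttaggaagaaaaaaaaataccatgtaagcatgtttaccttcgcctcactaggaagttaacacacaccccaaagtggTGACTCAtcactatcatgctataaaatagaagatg
Mmp12, second annotated start, chr9:7347224-7347373, plus strand: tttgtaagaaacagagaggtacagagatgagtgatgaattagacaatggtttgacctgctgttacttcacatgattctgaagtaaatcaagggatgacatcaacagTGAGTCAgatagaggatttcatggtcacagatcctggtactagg
Mmp3, chr9:7445672-7445821, plus strand: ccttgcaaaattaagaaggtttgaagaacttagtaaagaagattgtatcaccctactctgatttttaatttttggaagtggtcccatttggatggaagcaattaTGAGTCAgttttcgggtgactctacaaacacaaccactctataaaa
Mmp10, chr9:7502192-7502341, plus strand: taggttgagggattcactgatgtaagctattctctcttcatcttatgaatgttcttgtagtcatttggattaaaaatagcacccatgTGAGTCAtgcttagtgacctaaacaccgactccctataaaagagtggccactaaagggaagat
Mmp8, chr9:7558279-7558428, plus strand: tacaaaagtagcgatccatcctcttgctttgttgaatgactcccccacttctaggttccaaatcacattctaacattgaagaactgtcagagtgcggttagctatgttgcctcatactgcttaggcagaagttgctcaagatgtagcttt
Mmp27, chr9:7571246-7571395, plus strand: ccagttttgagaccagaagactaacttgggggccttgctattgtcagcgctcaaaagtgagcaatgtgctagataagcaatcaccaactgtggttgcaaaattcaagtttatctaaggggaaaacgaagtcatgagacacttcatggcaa
With −1 as the base before the start, the AP-1 letters ran from −35 to −29 in Mmp13, from −44 to −38 at the second start of Mmp12, from −46 to −40 in Mmp3 and from −63 to −57 in Mmp10. The interferon core of Mmp13 ran from −146 to −137. Neither motif was found before the first annotated start of Mmp12, nor in the stretches of Mmp8 and Mmp27.

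The 2 called members outside the cluster are shown for comparison, with no letters of either motif in the stretch.
Adam8, chr7:139992563-139992712, minus strand: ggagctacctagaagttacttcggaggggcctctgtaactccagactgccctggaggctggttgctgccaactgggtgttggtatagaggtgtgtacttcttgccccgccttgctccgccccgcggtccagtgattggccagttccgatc
Adam23, chr1:63445741-63445890, plus strand: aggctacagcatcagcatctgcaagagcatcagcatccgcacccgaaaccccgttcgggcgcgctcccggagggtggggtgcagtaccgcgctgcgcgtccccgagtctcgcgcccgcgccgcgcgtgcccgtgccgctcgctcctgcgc
RefSeq promoters were matched for 31 of the 48 members (35 starts). Over the 250 bases before the start, the AP-1 letters were found in 5 of 35 member promoters (14.3%), those of Adam19, Mmp3, Mmp10, Mmp12 and Mmp13, against 4.46% of all 32851 promoters of the table. The interferon core was found in 1 of 35 (2.86%), against 2.98% of all promoters. Such matches describe letters in a window and do not show binding. None of the 3 called members had the AP-1 letters in that window, and of the 5 that did, Mmp10 alone had an unadjusted p under the 0.05 level in the comparison of SLR14 with PBS tumours.

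Mmp8 and Adam8 were higher, and Adam23 was lower, in SLR14 tumours than in PBS tumours, and these were the 3 members called at an adjusted p of 0.05 by edgeR's quasi-likelihood test with Benjamini-Hochberg adjustment over 15883 genes. That is 6.82% of the 44 members tested, against 0.963% of all genes tested (153 genes). By direction, 2 members were called higher, where 0.674% of all genes were (107 genes), and 1 was called lower, where 0.29% of all genes were (46 genes). At an unadjusted p of 0.05, 8 members passed (18.2%), against 10.8% of all genes, and of these 3 were higher and 5 lower. In 4 members (9.09%) the CPM of the groups did not overlap, against 3.24% of all genes. The other 41 tested members were not called by edgeR, nor by limma or DESeq2 on the same tumours (DESeq2 gave no adjusted p for Mmp13), with 23 positive and 21 negative log2 fold changes among all 44. The median log2 fold change of the members was 0.013 (all genes −0.011), and their median absolute log2 fold change was 0.26 (all genes 0.15).

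**Figure D1:**
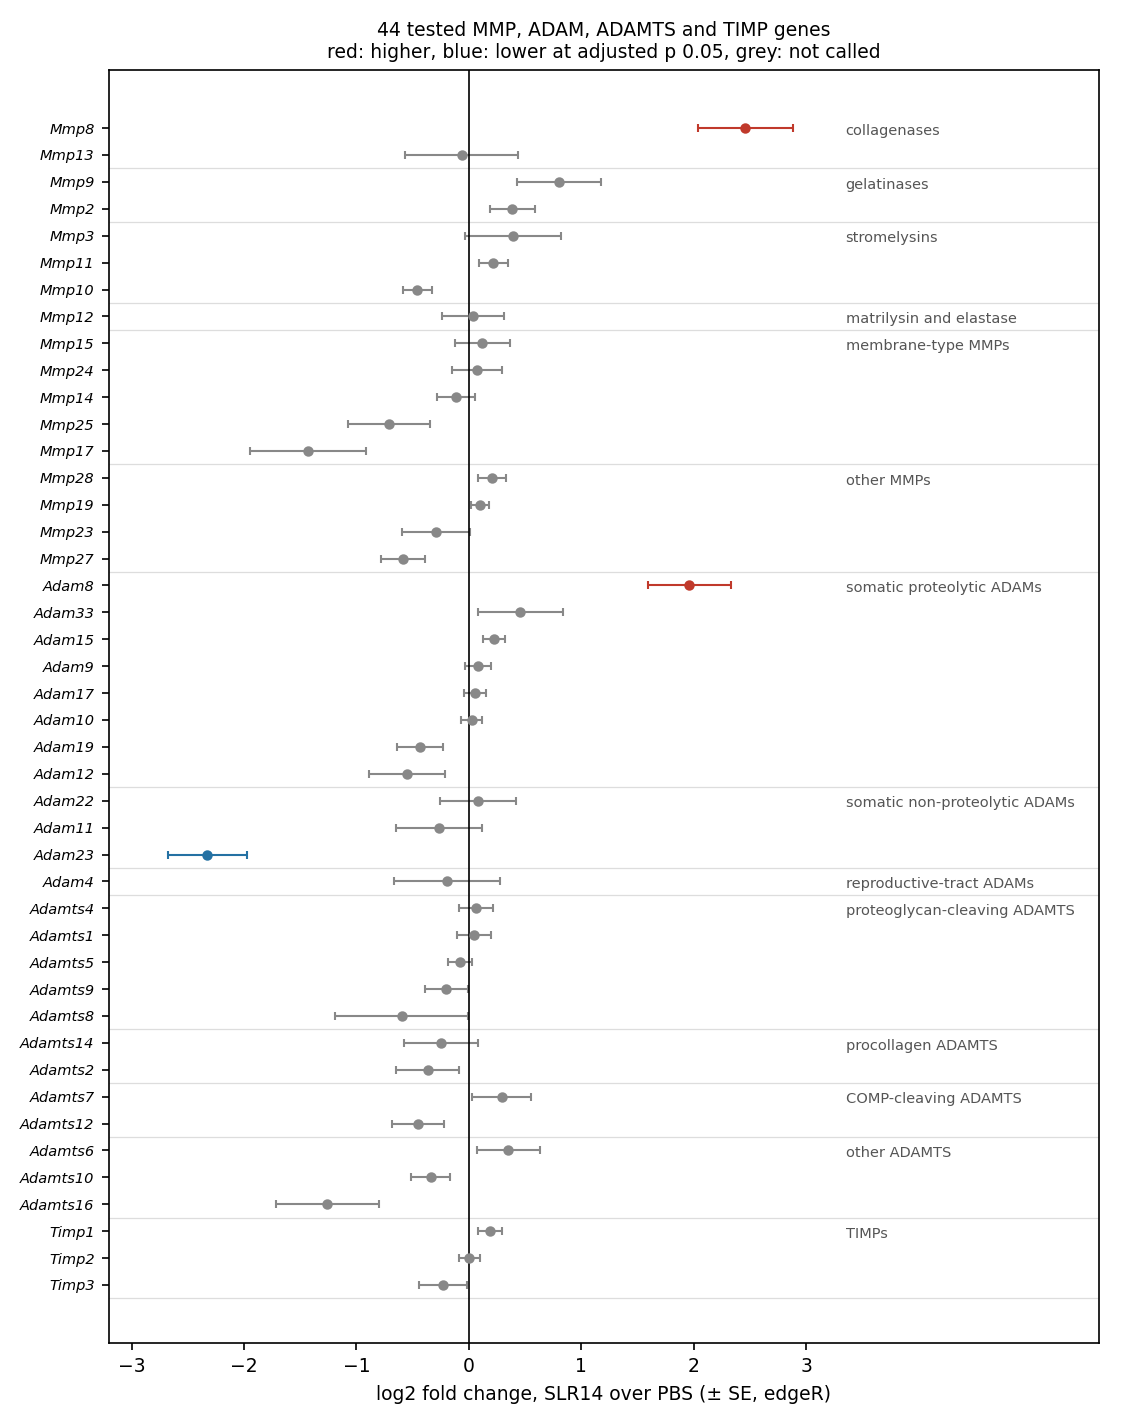
Log2 fold change of SLR14 over PBS tumours (x axis, edgeR, bars ± SE, 5 tumours per group) for the 44 tested members, grouped by role down the page. Mmp8 and Adam8 stand to the right of zero and Adam23 to the left in colour, while 34 of the 44 members lie within 0.5 of zero.

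The collagenase Mmp8, stored in neutrophil granules and able to cut fibrillar collagen, was a low transcript that was higher in every SLR14 tumour. It had 1.39, 4.17, 2.36, 3.62 and 0.933 CPM in SLR14 tumours 1 to 5, against 0.523, 0.539, 0.339, 0.239 and 0.581 CPM in PBS tumours 1 to 5. The lowest SLR14 tumour lay above the highest PBS tumour, so the groups did not overlap, although SLR14 tumours differed among themselves by more than PBS tumours did. These levels rest on 34, 70, 93, 71 and 35 reads in SLR14 tumours and on 15, 17, 9, 8 and 15 reads in PBS tumours. The mean was 2.49 ± 1.39 CPM in SLR14 tumours and 0.444 ± 0.147 CPM in PBS tumours (SD, n = 5 each), a ratio of 5.61, and the log2 fold change was 2.46 (SE 0.42, edgeR adjusted p = 0.0138). A two-sided exact permutation test of log2(CPM + 1) gave p = 0.00794, the smallest that 5 against 5 tumours allow, and is unadjusted. This test was run for the 8 members chosen by an unadjusted edgeR p under 0.05, so it is a second reading of the same tumours. With any single tumour left out the log2 fold change was 2.20 to 2.68, and the settings that lost the call included leaving out PBS tumour 3 (edgeR adjusted p = 0.0501) and limma voom in place of edgeR (adjusted p = 0.0576).

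**Figure D2:**
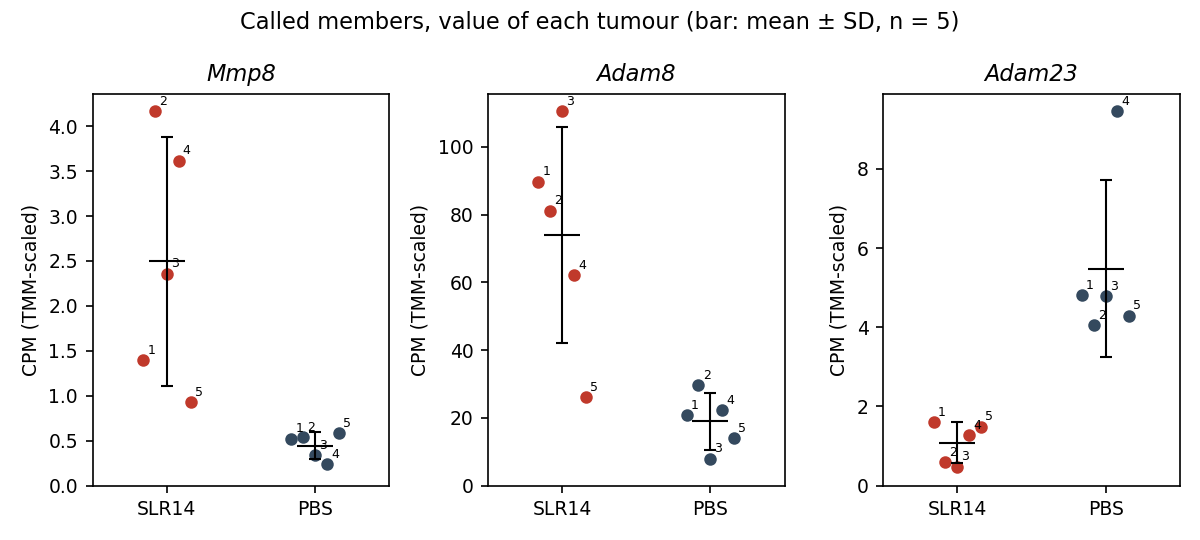
CPM (y axis, from 0) of Mmp8, Adam8 and Adam23 in each of 5 SLR14 and 5 PBS tumours, with tumour numbers beside the points and bars for mean ± SD. The groups are separate for Mmp8 and Adam23, while for Adam8 SLR14 tumour 5 (26.1 CPM) lies below PBS tumour 2 (29.7 CPM).

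Neutrophil markers moved with Mmp8, and 2 of the 4 tested were called higher. The 7 of 11 listed neutrophil markers that were measured summed to between 17.2 and 47.6 CPM in SLR14 tumours and between 10.6 and 15.7 CPM in PBS tumours, with no overlap. The 2 called markers were S100a8 and S100a9, the calprotectin subunits, with log2 fold changes of 2.11 (SE 0.36, edgeR adjusted p = 0.0127) and 2.64 (SE 0.52, edgeR adjusted p = 0.0295). Cxcr2, tested and not called, had a log2 fold change of 1.41 (SE 0.36, edgeR adjusted p = 0.111), and its groups overlapped. Csf3r, the receptor for granulocyte colony-stimulating factor, had 12.3 ± 3.71 CPM in SLR14 tumours and 9.18 ± 2.86 CPM in PBS tumours (SD, n = 5 each; log2 fold change 0.41, edgeR adjusted p = 0.562). Ngp, a granule protein gene, had a count of 0 in every PBS tumour and at most 0.406 CPM in SLR14 tumours, and Camp, Elane, Ly6g and Mpo were not analysed here. The part of neutrophil number in the Mmp8 result was not tested.

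**Figure D3:**
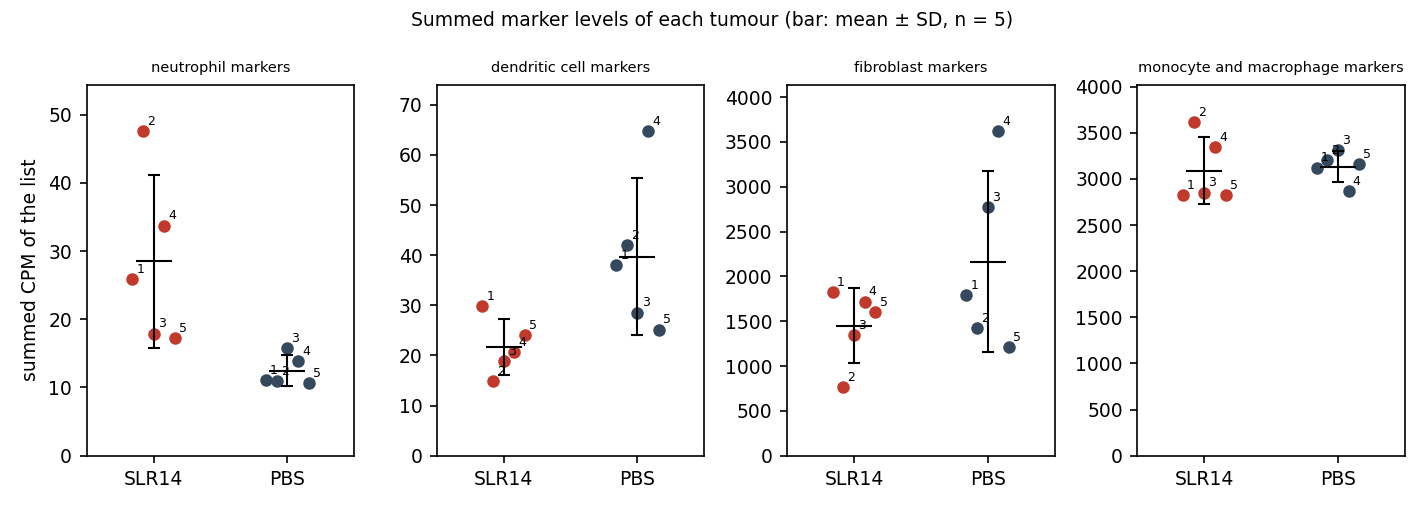
Summed CPM of 4 cell type marker lists (y axes, each from 0) in 5 SLR14 and 5 PBS tumours, with tumour numbers beside the points and bars for mean ± SD. Neutrophil marker sums do not overlap between the groups, and PBS tumour 4 holds the highest dendritic cell and fibroblast marker sums.

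The other measured collagenase, Mmp13, which is the main interstitial collagenase of rodents, was not called, and its result turned on 1 tumour. Mmp13 had 22.7, 17.7, 19.4, 20.7 and 9.19 CPM in SLR14 tumours 1 to 5, against 9.16, 8.28, 9.20, 56.2 and 10.5 CPM in PBS tumours 1 to 5. Of the SLR14 tumours 4 lay above 4 of the PBS tumours, SLR14 tumour 5 lay among the low PBS values, and PBS tumour 4 was the highest of all 10. The medians were 19.4 CPM in SLR14 tumours and 9.20 CPM in PBS tumours, while the means were 18.0 ± 5.23 CPM in SLR14 tumours and 18.7 ± 21.0 CPM in PBS tumours (SD, n = 5 each). With all tumours its log2 fold change was −0.065 (SE 0.50, edgeR adjusted p = 0.968), with 0.95 without PBS tumour 4 (edgeR adjusted p = 0.0766) and 0.10 without SLR14 tumour 5. PBS tumour 4 also had the highest summed dendritic cell markers (64.8 CPM) and fibroblast markers (3622 CPM) of the 10 tumours, as well as skin keratins (Krt10 30.8 CPM), and the part of these cells in its Mmp13 level was not tested.

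The gelatinases, which digest denatured collagen and basement membrane collagen, had positive fold changes that did not pass the test. Mmp9, a product of myeloid cells among others, had 5.29, 7.86, 5.51, 7.24 and 16.0 CPM in SLR14 tumours 1 to 5, against 2.79, 2.86, 6.82, 8.44 and 3.21 CPM in PBS tumours 1 to 5. The groups overlapped, since PBS tumours 3 and 4 lay among the SLR14 values, and SLR14 tumour 5 stood above all others. In the edgeR test its log2 fold change was 0.80 (SE 0.37, adjusted p = 0.464), and its unadjusted p missed 0.05. Mmp2, a gelatinase made largely by stromal and tumour cells and activated at the cell surface, had 415, 557, 401, 523 and 677 CPM in SLR14 tumours 1 to 5, against 444, 523, 249, 449 and 302 CPM in PBS tumours 1 to 5. These values overlapped as well, with SLR14 tumour 5 highest and PBS tumour 3 lowest, and the log2 fold change was 0.39 (SE 0.20, edgeR adjusted p = 0.516). Without SLR14 tumour 5, the one with skin keratins (Krt14 62.3 CPM), the log2 fold change was 0.41 for Mmp9 and 0.27 for Mmp2. With any single tumour left out it was 0.41 to 1.11 for Mmp9 and 0.26 to 0.51 for Mmp2, whose lowest value came without another tumour. The part of skin in the levels of SLR14 tumour 5 was not tested.

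The stromelysins, which have broad substrates and can activate other MMPs, were not called. Mmp10 (stromelysin 2) had 44.6, 44.6, 41.8, 38.4 and 38.4 CPM in SLR14 tumours 1 to 5, against 55.2, 45.0, 58.0, 50.8 and 76.9 CPM in PBS tumours 1 to 5. Every SLR14 tumour lay below every PBS tumour, by a narrow margin at PBS tumour 2. SLR14 over PBS gave a log2 fold change of −0.46 (SE 0.13, edgeR p = 0.00327, adjusted p = 0.150), the exact permutation test gave p = 0.00794, and without PBS tumour 5 the log2 fold change was −0.34 (edgeR adjusted p = 0.0962). Mmp3 (stromelysin 1) ranged from 1.85 to 3.36 CPM in SLR14 tumours and from 0.641 to 4.58 CPM in PBS tumours, with PBS tumour 4 highest and a log2 fold change of 0.39 (SE 0.43, edgeR adjusted p = 0.742). Mmp11 (stromelysin 3), which is activated by furin inside the cell, had 19.0 ± 2.38 CPM in SLR14 tumours and 16.3 ± 2.59 CPM in PBS tumours (SD, n = 5 each; edgeR adjusted p = 0.567).

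Mmp12, the macrophage elastase, was nearly level between the groups. It ranged from 26.6 to 57.4 CPM in SLR14 tumours (median 37.8) and from 20.1 to 65.0 CPM in PBS tumours (median 37.6), and its log2 fold change was 0.034 (SE 0.28, edgeR adjusted p = 0.970). The summed monocyte and macrophage markers also overlapped, at 2822 to 3613 CPM in SLR14 tumours and 2866 to 3316 CPM in PBS tumours, and 0 of 12 were called by edgeR (2 had an unadjusted p under 0.05, and DESeq2 called Ly6c2 higher). Mmp12 shares 157 exon bases with Mmp1b on the other strand in the GENCODE M21 annotation, and whether the counting used strand is not given in the sources used here.

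**Figure D4:**
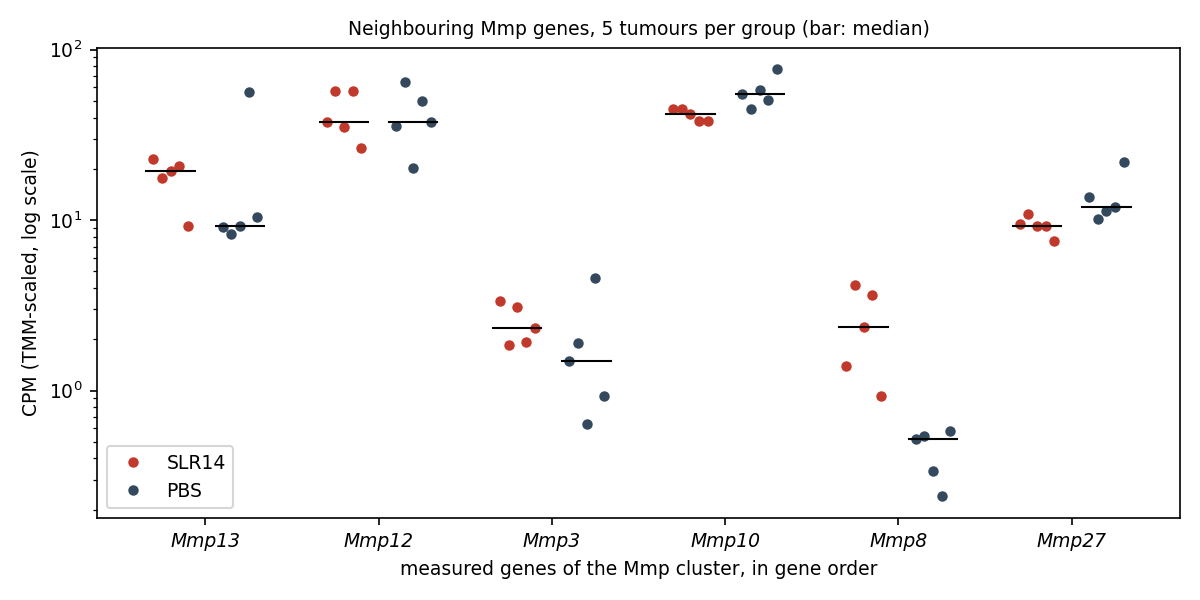
CPM on a log axis of the 6 measured genes of the Mmp cluster, in gene order, with 5 SLR14 tumours (red) left of 5 PBS tumours (dark blue) and bars for medians. Mmp8 is higher in all SLR14 tumours, Mmp10 lies below the PBS values in all SLR14 tumours, and 1 PBS tumour stands far above the rest for Mmp13.

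Mmp27, the other neighbour of Mmp8 and a little-studied member, had 9.43, 10.8, 9.24, 9.22 and 7.51 CPM in SLR14 tumours 1 to 5, against 13.8, 10.2, 11.4, 11.9 and 22.0 CPM in PBS tumours 1 to 5. The groups overlapped at SLR14 tumour 2 and PBS tumour 2, and PBS tumour 5 was highest, as it was for Mmp10. In edgeR the log2 fold change was −0.58 (SE 0.19, p = 0.00979, adjusted p = 0.264; exact permutation p = 0.0159).

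None of the 5 membrane-type MMPs, which work at the cell surface, was called by edgeR, and 1 had an unadjusted p under 0.05. Mmp14, the main activator of pro-MMP2, ranged from 79.4 to 92.3 CPM in SLR14 tumours and from 62.2 to 138 CPM in PBS tumours, which enclosed all SLR14 values. Its log2 fold change was −0.12 (SE 0.17, edgeR adjusted p = 0.801) and 0.071 without PBS tumour 4. Mmp17, a glycolipid-anchored member, had 0.205, 0.119, 0.482, 0.306 and 0.320 CPM in SLR14 tumours 1 to 5, against 0.662, 0.286, 2.00, 0.748 and 0.465 CPM in PBS tumours 1 to 5. PBS tumour 3 stood apart and PBS tumours 2 and 5 lay within the SLR14 values. Its fitted log2 fold change was −1.43 (SE 0.51, edgeR p = 0.0152, adjusted p = 0.318; exact permutation p = 0.0556), and Mmp17 passed the low-count filter through 4 PBS tumours and 1 SLR14 tumour. Mmp25, the other glycolipid-anchored member, had 1.93 ± 0.451 CPM in SLR14 tumours and 3.12 ± 1.85 CPM in PBS tumours (SD, n = 5 each; edgeR adjusted p = 0.505). Mmp15 and Mmp24 had log2 fold changes of 0.12 and 0.069.

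Among the remaining MMPs, Mmp28 (epilysin) and Mmp19 differed little between the groups. Mmp19 ranged from 33.0 to 34.3 CPM in SLR14 tumours and from 27.4 to 34.7 CPM in PBS tumours (edgeR adjusted p = 0.670). Mmp28 had 74.8 ± 6.72 CPM in SLR14 tumours and 64.9 ± 10.9 CPM in PBS tumours (SD, n = 5 each; edgeR adjusted p = 0.564). Mmp19 and Mmp28 each share exon bases with a gene on the opposite strand (Tmem198b and 1700020L24Rik).

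Adam8, a leukocyte protease known from neutrophils, monocytes and macrophages that sheds adhesion molecules, was the best expressed of the called members. It had 89.7, 81.1, 111, 62.1 and 26.1 CPM in SLR14 tumours 1 to 5, against 20.8, 29.7, 7.96, 22.3 and 13.9 CPM in PBS tumours 1 to 5. Of the SLR14 tumours 4 lay above every PBS tumour, and SLR14 tumour 5 lay below PBS tumour 2, so the groups overlapped there. The mean was 73.9 ± 31.9 CPM in SLR14 tumours and 18.9 ± 8.31 CPM in PBS tumours (SD, n = 5 each), a ratio of 3.90, with a log2 fold change of 1.96 (SE 0.37, edgeR adjusted p = 0.0241; exact permutation p = 0.0159). With any single tumour left out the fold change stayed between 1.77 and 2.18 on the log2 scale, but the call was lost without PBS tumour 1 (edgeR adjusted p = 0.0671), PBS tumour 3 (0.0511), SLR14 tumour 1 (0.0679) or SLR14 tumour 3 (0.0732), and without PBS tumour 5 and SLR14 tumour 2 together (0.0518). The SLR14 tumours do not keep the same order for Adam8 as for Mmp8: tumour 3 was highest for Adam8 and tumour 2 for Mmp8 and for the neutrophil marker sum, with tumour 5 lowest in all 3. The part of leukocyte number in the Adam8 result was not tested.

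The other proteolytic ADAMs were not called. Adam15, an active protease with an adhesive domain, had 196, 215, 205, 196 and 215 CPM in SLR14 tumours 1 to 5, against 174, 185, 186, 193 and 141 CPM in PBS tumours 1 to 5. Every SLR14 tumour lay above every PBS tumour, though PBS tumour 4 came within a few CPM of the lowest SLR14 value. Its log2 fold change was 0.22 (SE 0.099, edgeR p = 0.0404, adjusted p = 0.438), with an exact permutation p of 0.00794. Without PBS tumour 5, the lowest of the PBS tumours, the log2 fold change was 0.15. An antisense gene, 4731419I09Rik, shares 1263 exon bases with Adam15, so reads of the 2 cannot be told apart if strand was not used.

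The sheddases Adam10, which starts Notch cleavage, and Adam17, which releases TNF, differed little. Adam10 ranged from 198 to 221 CPM in SLR14 tumours and from 179 to 239 CPM in PBS tumours (log2 fold change 0.024, SE 0.095, edgeR adjusted p = 0.936). Adam17 ranged from 142 to 166 CPM in SLR14 tumours and from 126 to 174 CPM in PBS tumours (log2 fold change 0.054, SE 0.10, edgeR adjusted p = 0.845). Adam9, a broadly expressed sheddase, had 349 ± 35.8 CPM in SLR14 tumours and 331 ± 46.7 CPM in PBS tumours (SD, n = 5 each; edgeR adjusted p = 0.802). Adam12 and Adam19, the meltrins, which are known from mesenchymal cells, averaged 8.56 ± 3.07 and 20.2 ± 3.62 CPM in SLR14 tumours, against 12.7 ± 6.47 and 27.2 ± 8.65 CPM in PBS tumours (SD, n = 5 each). Their groups overlapped, with log2 fold changes of −0.55 and −0.43 and edgeR adjusted p of 0.581 and 0.471.

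Adam23, which lacks the catalytic site and serves in the brain as a receptor for the secreted protein LGI1, was lower in every SLR14 tumour. It had 1.60, 0.595, 0.482, 1.27 and 1.49 CPM in SLR14 tumours 1 to 5, against 4.81, 4.06, 4.79, 9.46 and 4.30 CPM in PBS tumours 1 to 5. The highest SLR14 tumour lay well under the lowest PBS tumour, and PBS tumour 4 stood above the other PBS tumours. The mean was 1.09 ± 0.517 CPM in SLR14 tumours and 5.48 ± 2.25 CPM in PBS tumours (SD, n = 5 each), a ratio of 0.199, with a log2 fold change of −2.33 (SE 0.35, edgeR adjusted p = 0.00515). The exact permutation test gave an unadjusted p = 0.00794, the value that groups without overlap always give at this size. The edgeR call held in each of the 21 alternative settings. Adam11, another non-proteolytic member known from neurons, ranged from 0.255 to 1.14 CPM in SLR14 tumours and from 0.503 to 1.08 CPM in PBS tumours (log2 fold change −0.27, edgeR adjusted p = 0.800). Adam22, a further one, ranged from 0.558 to 1.53 CPM in SLR14 tumours and from 0.453 to 1.02 CPM in PBS tumours (log2 fold change 0.079, edgeR adjusted p = 0.940).

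All 5 tested dendritic cell markers and 8 of 9 fibroblast markers also had negative log2 fold changes, although the sums of both lists overlapped between the groups. An unadjusted edgeR p under 0.05 was reached by 5 of these dendritic cell markers and 4 of these fibroblast markers. The 7 dendritic cell markers summed to between 14.9 and 29.8 CPM in SLR14 tumours and between 25.2 and 64.8 CPM in PBS tumours. Of the 5 tested, 2 were called lower, Zbtb46 (log2 fold change −0.93, SE 0.19, edgeR adjusted p = 0.0398) together with Cd209a (−4.36, SE 0.36, edgeR adjusted p = 1.29e-04). Cd209a had 0.041 to 0.255 CPM in SLR14 tumours, under the filter's 0.373 CPM, and 1.78 to 3.64 CPM in PBS tumours. It passed the low-count filter through PBS tumours alone. The 9 fibroblast markers summed to between 767 and 1826 CPM in SLR14 tumours and between 1215 and 3622 CPM in PBS tumours, and 1 of 9, Fap, was called lower. Clec9a, a defining marker of cross-presenting dendritic cells, was at most 0.246 CPM in SLR14 tumours and 0.359 CPM in PBS tumours. Rgs5, a pericyte marker, averaged 41.5 ± 8.24 CPM in SLR14 tumours and 80.6 ± 6.20 CPM in PBS tumours (SD, n = 5 each), without overlap (log2 fold change −0.96, SE 0.13, edgeR adjusted p = 0.00315). It was the 1 called of 7 pericyte and smooth muscle markers, whose sums were 165 to 194 CPM in SLR14 tumours and 178 to 303 CPM in PBS tumours. Epcam, of the renal epithelial list, averaged 0.617 ± 0.502 CPM in SLR14 tumours and 3.45 ± 1.62 CPM in PBS tumours (SD, n = 5 each). PBS tumour 4 was highest for Adam23, Epcam and the dendritic cell and fibroblast sums, and held skin keratins (Krt14 17.6 CPM); without it the log2 fold change of Adam23 was −2.03 (edgeR adjusted p = 0.00768). The part of these cells in the Adam23 result was not tested.

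None of the 12 tested ADAMTS genes was called by edgeR, and 1 had an unadjusted p under 0.05. Their log2 fold changes were negative in 8 of 12, with a median of −0.22 (all genes −0.011). Of the proteoglycan-cleaving members, Adamts1 had 645 ± 95.2 CPM in SLR14 tumours and 624 ± 125 CPM in PBS tumours (SD, n = 5 each; log2 fold change 0.046, SE 0.15, edgeR adjusted p = 0.920). Adamts5, the main aggrecanase of mouse cartilage, ranged from 330 to 387 CPM in SLR14 tumours and from 326 to 433 CPM in PBS tumours (log2 fold change −0.079, SE 0.10, edgeR adjusted p = 0.780). Adamts4, the other classical aggrecanase, and Adamts9, a versican-cleaving enzyme, had log2 fold changes of 0.063 (edgeR adjusted p = 0.884) and −0.20 (edgeR adjusted p = 0.706). Adamts9 shares 1381 exon bases with A730049H05Rik on the opposite strand.

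The procollagen N-proteinases, which trim fibrillar procollagens, both had negative fold changes without a call. Adamts2 had 17.9 ± 3.97 CPM in SLR14 tumours and 23.2 ± 10.3 CPM in PBS tumours (SD, n = 5 each; log2 fold change −0.37, SE 0.28, edgeR adjusted p = 0.639), with PBS tumour 4 highest at 37.4 CPM. Adamts14 stayed between 0.459 and 1.15 CPM in SLR14 tumours and between 0.592 and 1.51 CPM in PBS tumours (edgeR adjusted p = 0.783). Of the members that cut cartilage oligomeric matrix protein, Adamts12 had 6.74 ± 1.45 CPM in SLR14 tumours and 9.25 ± 2.89 CPM in PBS tumours (SD, n = 5 each; edgeR adjusted p = 0.513), and Adamts7 had 5.52 ± 0.617 CPM in SLR14 tumours and 4.50 ± 2.21 CPM in PBS tumours (SD, n = 5 each; edgeR adjusted p = 0.691).

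Adamts16, reported to cut fibronectin, had 0.861, 0.119, 0.660, 0.408 and 0.533 CPM in SLR14 tumours 1 to 5, against 1.43, 0.413, 2.38, 1.29 and 0.968 CPM in PBS tumours 1 to 5. PBS tumour 2 lay within the SLR14 values and the other PBS tumours above them. Over all tumours the log2 fold change was −1.26 (SE 0.46, edgeR p = 0.0165, adjusted p = 0.325; exact permutation p = 0.0476). Adamts10 and Adamts6, which act on fibrillin microfibrils, averaged 4.04 ± 0.643 and 4.28 ± 1.55 CPM in SLR14 tumours, against 5.12 ± 1.05 and 3.39 ± 0.825 CPM in PBS tumours (SD, n = 5 each). Neither was called (edgeR adjusted p = 0.512 and 0.651).

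No TIMP was called by edgeR, and 0 of the 3 had an unadjusted p under 0.05. Timp1, a secreted inhibitor that is often induced in inflammation, had 25.5, 29.6, 23.5, 30.1 and 28.3 CPM in SLR14 tumours 1 to 5, against 22.5, 21.6, 21.4, 27.7 and 26.9 CPM in PBS tumours 1 to 5. The groups overlapped, and the log2 fold change was 0.19 (SE 0.11, edgeR adjusted p = 0.564). Timp2, which both inhibits MMP2 and takes part in its activation by MMP14, ranged from 896 to 1001 CPM in SLR14 tumours and from 813 to 1013 CPM in PBS tumours (log2 fold change 0.0025, SE 0.094, edgeR adjusted p = 0.993). Timp3, which is bound to the matrix and also inhibits ADAM17, had 12.5 ± 3.90 CPM in SLR14 tumours and 14.7 ± 3.61 CPM in PBS tumours (SD, n = 5 each; log2 fold change −0.23, SE 0.21, edgeR adjusted p = 0.694). Timp3 shares 1733 exon bases with Syn3 on the opposite strand, and Timp4 was not analysed here.

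Levels of different genes were compared as CPM per kilobase of merged exons, with lengths from GENCODE M21, which is on another build than the counts. Timp2 was the highest member, at 241 ± 10.3 CPM per kilobase in SLR14 tumours and 240 ± 21.0 in PBS tumours (SD, n = 5 each). It was followed by Mmp2, at 153 ± 33.5 CPM per kilobase in SLR14 tumours and 117 ± 33.7 in PBS tumours, and by Adamts1, at 122 ± 18.0 in SLR14 tumours and 118 ± 23.7 in PBS tumours, which did not differ from each other beyond their spread. Adam9 came next, at 84.8 ± 8.70 CPM per kilobase in SLR14 tumours and 80.3 ± 11.3 in PBS tumours, above Adam10, Adamts5 and Adam15. Within each family 1 gene made up much of the summed level per kilobase over the 10 tumours: 88.7% for Timp2 among the TIMPs, 69.5% for Adamts1 among the ADAMTS, 56.8% for Mmp2 among the MMPs and 42.9% for Adam9 among the ADAMs.

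**Figure D5:**
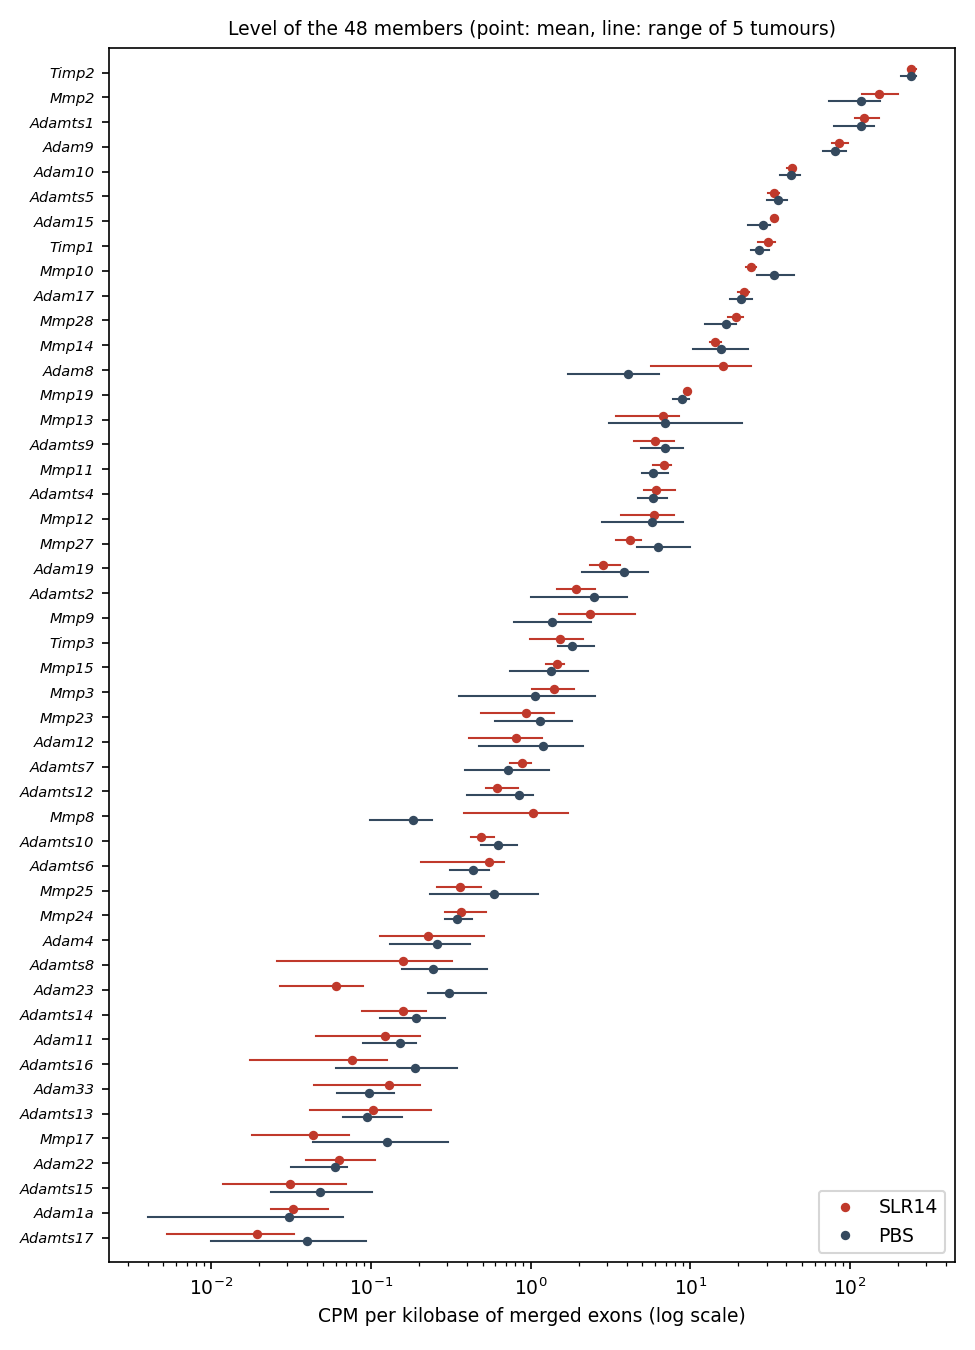
Level of the 48 members as CPM per kilobase of merged exons (x axis, log scale), in order of their mean over all tumours; points are means and lines the range over 5 SLR14 (red) and 5 PBS (dark blue) tumours. Adam8, Mmp8 and Adam23 are the members whose means lie furthest apart, and they lie well below Timp2, Mmp2 and Adamts1 in level.

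The called members carried little of the summed level. Adam8 averaged 15.9 CPM per kilobase in SLR14 tumours and 4.09 in PBS tumours, Mmp8 1.03 in SLR14 tumours and 0.183 in PBS tumours, and Adam23 0.0608 in SLR14 tumours and 0.306 in PBS tumours. The MMP family summed to between 213 and 296 CPM per kilobase in SLR14 tumours (median 258) and between 176 and 265 in PBS tumours (median 226). The ADAM family summed to between 184 and 220 CPM per kilobase in SLR14 tumours and between 161 and 210 in PBS tumours. The ADAMTS family summed to between 158 and 203 CPM per kilobase in SLR14 tumours and between 123 and 194 in PBS tumours. The TIMPs summed to between 265 and 291 CPM per kilobase in SLR14 tumours and between 241 and 294 in PBS tumours. In each family the groups overlapped. The ratio of Mmp2 to Timp2, both per kilobase, had a median of 0.675 in SLR14 tumours (0.496 to 0.781) and of 0.513 in PBS tumours (0.321 to 0.613), which also overlapped, and PBS tumour 3 was lowest.

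The highest value of a member among the 10 tumours fell unevenly. PBS tumour 4 held the highest CPM of 11 of the 44 tested members (25.0%), against 8.18% of all genes tested, among them Adam23, Mmp13, Mmp3, Mmp14, Adam19 and Adamts2. PBS tumour 3 held the highest CPM of 10 (22.7%), against 10.7% of all genes. Of these 10, 6 are ADAMTS genes (Adamts8, Adamts9, Adamts10, Adamts12, Adamts14 and Adamts16), where 12 of the 44 tested members are. PBS tumour 5, which held the highest CPM of 28.4% of all genes, did so for 2 members, the neighbours Mmp10 and Mmp27. The same tumour held the lowest CPM of 14 members (31.8%), against 28.6% of all genes. The SD of log2(CPM + 1) was larger in PBS than in SLR14 tumours for 33 of the 44 members (75.0%), and for 72.5% of all genes.

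Other genes of these pathways were listed in 7 groups of 88 genes, of which 70 were tested, 1 was called higher and 4 lower in SLR14 than in PBS tumours (7.14% called, against 0.963% of all genes). The lists were chosen with earlier results of these data known, so the larger share is not a test of these pathways. In plasminogen activation, 0 of 9 tested genes were called higher and 1 lower. Serpine2, a protease inhibitor that blocks thrombin and urokinase, averaged 20.7 ± 2.97 CPM in SLR14 tumours and 36.4 ± 8.21 CPM in PBS tumours (SD, n = 5 each; log2 fold change −0.82, SE 0.15, edgeR adjusted p = 0.0241), with no overlap. Its call was lost without any one of PBS tumours 1, 3 and 4 and SLR14 tumours 1, 3, 4 and 5 (edgeR adjusted p 0.0507 to 0.0753). Plgrkt, a plasminogen receptor, had a log2 fold change of −0.24 (edgeR adjusted p = 0.442).

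Of the 7 tested genes of the matrix cathepsin list, which includes the inhibitor cystatin C, 1 was called higher and 0 lower. Ctss, a lysosomal cysteine protease of antigen-presenting cells that can also cut elastin, averaged 251 ± 15.3 CPM in SLR14 tumours and 184 ± 13.3 CPM in PBS tumours (SD, n = 5 each). The groups did not overlap (243 to 278 CPM in SLR14 tumours and 171 to 200 CPM in PBS tumours), and the log2 fold change was 0.44 (SE 0.088, edgeR adjusted p = 0.0310). Its call was lost with upper-quartile scaling (edgeR adjusted p = 0.0625) and without any one of PBS tumours 1, 2 and 3 and SLR14 tumours 1 to 5 (0.0525 to 0.125). Cst3, cystatin C, had a log2 fold change of −0.15 (edgeR adjusted p = 0.662).

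Among 7 tested astacin and serine matrix proteases, 0 were called higher and 2 lower. Fap, a serine protease of activated fibroblasts that cuts denatured collagen, averaged 0.863 ± 0.317 CPM in SLR14 tumours and 2.89 ± 0.736 CPM in PBS tumours (SD, n = 5 each; log2 fold change −1.74, SE 0.29, edgeR adjusted p = 0.0126). Dpp4, its dipeptidyl peptidase relative, averaged 0.221 ± 0.133 CPM in SLR14 tumours and 1.14 ± 0.473 CPM in PBS tumours (SD, n = 5 each; log2 fold change −2.32, SE 0.43, edgeR adjusted p = 0.0235). Among SLR14 tumours only tumour 5 (0.400 CPM) reached the filter's 0.373 CPM, so Dpp4 passed the filter mainly through PBS tumours. The Dpp4 call was lost without PBS tumour 1 (edgeR adjusted p = 0.0589), SLR14 tumour 1 (0.0714) or SLR14 tumour 3 (0.0636). Neither gene's groups overlapped.

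Of 21 tested substrates of ADAM shedding, 0 were called higher and 1 lower. Epcam, an epithelial adhesion molecule, averaged 0.617 ± 0.502 CPM in SLR14 tumours and 3.45 ± 1.62 CPM in PBS tumours (SD, n = 5 each; log2 fold change −2.42, SE 0.49, edgeR adjusted p = 0.0324). Its call was lost without any one of PBS tumours 1, 3 and 4 and SLR14 tumours 1 to 4 (edgeR adjusted p 0.0547 to 0.0936).

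No gene of the other 3 lists was called by edgeR: 0 of 8 MMP activators and non-TIMP inhibitors (4 with an unadjusted p under 0.05), 0 of 8 ADAM10 and ADAM17 partners (3) and 0 of 10 ADAMTS-like and proteoglycan genes (3). Of these lists, DESeq2 called Vcan higher and Tfpi2 lower. The smallest unadjusted p of the first list belonged to Tfpi2, an inhibitor of serine proteases, with a log2 fold change of −1.23 (SE 0.31, edgeR adjusted p = 0.103), followed by the proprotein convertase Pcsk5 (−1.38, SE 0.48, edgeR adjusted p = 0.301). Among the partners, Tspan15, which steers ADAM10, and Rhbdf2, which carries ADAM17 to the surface, had log2 fold changes of −0.63 (edgeR adjusted p = 0.424) and 0.35 (edgeR adjusted p = 0.436). Vcan, the proteoglycan versican and a substrate of ADAMTS1, ADAMTS4, ADAMTS5 and ADAMTS9, averaged 13.7 ± 4.23 CPM in SLR14 tumours and 8.03 ± 1.59 CPM in PBS tumours (SD, n = 5 each; log2 fold change 0.76, SE 0.20, edgeR adjusted p = 0.129). Adamtsl1, an ADAMTS-like protein without protease activity, had a log2 fold change of −1.36 (SE 0.44, edgeR adjusted p = 0.239).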

How the data were processed

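RNA of 10 tumours was purified with an RNeasy kit, depleted of ribosomal RNA, enriched with oligo(dT) beads and made into libraries with random primers, per the labels' protocols. The submitters' processing notes list Trim Galore 0.6.7, STAR, the build mm39 and DESeq2 1.36.0. The counter, gene annotation and strand setting: not given in the sources used here. The authors deposited raw read counts per gene and a table of normalized values (unit: signal, counts divided by 1 factor per tumour), used in alternatives only. Counts were tested with edgeR 4.0.16 (R 4.3.3): genes with a count of 10 or its CPM equivalent (0.373 at the median depth) in at least 5 tumours, TMM, quasi-likelihood fit of SLR14 against PBS over all 10 tumours, adjusted p under 0.05 over 15883 of 18603 genes. Standard errors were the log2 fold change over the square root of F. Depth was 17931895 to 39842608 counts. The script was tested on simulated data.

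Mmp8 passed the filter through 5 SLR14 and 3 PBS tumours. Adamts13, Adamts15, Adamts17 and Adam1a did not pass it. Named genes were all members past the threshold or with an unadjusted p under 0.05, the 2 highest of each role group, all TIMPs and a fixed set of 15 well-known members; of other pathways, genes past the threshold and the 2 smallest p per list (1 of these is not reported here). Members, lists and tests were chosen with earlier results of these data known. Exact permutation tests used all 252 assignments of tumours on log2(CPM + 1). Replicate numbers were not treated as pairs in the main fit. No label says what the numbers mean, and the correlations given below cannot exclude a shared batch. Alternatives used limma 3.58.1 and DESeq2 1.42.0.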

Additional observations from a re-analysis of the deposited data

Results flagged for a closer look

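In 6 of 74 groups of 5 tumours examined for the named members, 1 tumour stood apart from the other 4 by Dixon's test at the 95% level. For normally distributed values chance alone gives about 1 in 20 groups. Here the values were CPM without a log scale, the genes share tumours, and some were chosen by their p. That rate is therefore no yardstick for these groups. Mmp13, a collagenase, had 56.2 CPM in PBS tumour 4, where the other PBS tumours had 8.28 to 10.5 CPM. Adam23, the non-proteolytic ADAM, had 9.46 CPM in the same tumour, where the others had 4.06 to 4.81 CPM. Mmp9, gelatinase B, had 16.0 CPM in SLR14 tumour 5, where the other SLR14 tumours had 5.29 to 7.86 CPM. These were also the 2 tumours with skin keratins (Krt14 62.3 CPM in SLR14 tumour 5 and 17.6 CPM in PBS tumour 4), whose part was not tested. Mmp17 had 2.00 CPM in PBS tumour 3, where the others had 0.286 to 0.748 CPM. Adamts6 had 1.61 CPM in SLR14 tumour 2, the shallowest library, where the other SLR14 tumours had 4.28 to 5.28 CPM. Adam4, a gene known from the reproductive tract, had 1.27 CPM in SLR14 tumour 4, where the others had 0.287 to 0.558 CPM.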

How the results depend on the processing

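In the 21 alternative settings 1 member, Adam23, stayed called lower (log2 fold change −2.51 to −2.03). Of 750 values of named members under alternatives, 694 kept their direction and side of the threshold, 9 were no longer called and 47 changed sign, the last in 12 members that were not called. Members called higher numbered 1 with limma voom, 1 with at least 1 CPM in 5 tumours (which removed Mmp8 from the test), 1 without PBS tumour 5 and SLR14 tumour 2, which earlier results of these data had placed apart, and 0 to 2 with each tumour left out in turn. Without that pair Adam8 had an adjusted p of 0.0518, Dpp4 of 0.0514 and Epcam of 0.0567 (edgeR). Over all genes, DESeq2 called 251 higher and 156 lower, and limma voom with sample weights 205 and 144; 74 were lower without that pair, and leaving out each tumour gave 44 to 123 higher and 25 to 71 lower. Pathway genes called higher numbered 0 with upper-quartile factors and 3 with DESeq2, those called lower 2 without that pair, and leaving out each tumour gave 0 to 1 higher and 1 to 4 lower. The cause of these changes was not tested.

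Signs changed as follows, with log2 fold changes. With sample weights they were −0.071 for Adam22, −0.028 for Adam10, −0.023 for Adam17, −0.019 for Adam9, −0.12 for Adamts1, −0.0028 for Adamts4, −0.14 for Mmp12, 0.45 for Mmp13 and −0.059 for Timp2. Without the pair they were 0.13 for Adam4, −0.021 for Adam10, −0.015 for Adam9, −0.17 for Adamts1, −0.034 for Adamts4, −0.14 for Mmp12, −0.012 for Mmp15 and −0.054 for Timp2. With upper-quartile factors they were −0.0090 for Adam10 and −0.030 for Timp2, with 1 CPM in 5 tumours −0.0039 for Timp2, and for Mmp13 0.30 with limma voom and 0.38 on the authors' normalized values with either pseudocount (1 or 0.5). With each tumour left out they ranged from −0.66 to 0.037 for Adam4, −0.17 to 0.23 for Adam22, −0.022 to 0.078 for Adam10, −0.072 to 0.12 for Adamts1, −0.046 to 0.14 for Adamts4, −0.25 to 0.95 for Mmp13, −0.14 to 0.25 for Mmp12, −0.24 to 0.071 for Mmp14, −0.034 to 0.39 for Mmp15 and −0.050 to 0.033 for Timp2. No scaling moved the median of all genes by over 0.1 on the log2 scale (at most −0.047).

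The titles give both groups the numbers 1 to 5, but same-numbered tumours did not deviate together (correlations −0.203, 0.109, 0.0212, −0.108 and −0.144). No SLR14 tumour correlated best with the PBS tumour of its own number, and among PBS tumours only tumour 2 correlated best with its own number. With the replicate number as a block, edgeR called 0 members higher and 1 lower, 51 genes higher and 27 lower, and 0 pathway genes higher and 2 lower. Adam8 then had an adjusted p of 0.0537, Mmp8 of 0.0686, Fap of 0.0742, Serpine2 of 0.128 and Ctss of 0.176, and the log2 fold change of Mmp13 was 0.39. Members under about 1 CPM rest on few reads, so small differences in them were not detectable at this depth.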

Other observations

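The 4 members too low to test were present at under 1.2 CPM in every tumour. Adamts13, the liver-derived protease that cuts von Willebrand factor, had 0.504 ± 0.403 CPM in SLR14 tumours and 0.465 ± 0.190 CPM in PBS tumours (SD, n = 5 each). Adam1a, a sperm protein gene, had 0.244 ± 0.0942 CPM in SLR14 tumours and 0.232 ± 0.176 CPM in PBS tumours. On the same strand Gm42878 shares 4779 exon bases with Adam1a and Mapkapk5 shares 1805, and Tmem116 shares 848 on the opposite strand. The reads of Adam1a therefore cannot be assigned with certainty. Adamts15, a versican-cleaving enzyme, had 0.321 ± 0.239 CPM in SLR14 tumours and 0.498 ± 0.326 CPM in PBS tumours. Adamts17, linked in humans to a connective tissue disorder, had 0.151 ± 0.0793 CPM in SLR14 tumours and 0.310 ± 0.271 CPM in PBS tumours. In all 4 the groups overlapped.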
